A study of Mus musculus with 23 samples.

Results

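Muscle of old mice that had completed moderate-intensity continuous training (MICT) was set against muscle of adult mice that had not trained, to see which transcripts stood at, above or below the adult sedentary level. The 8 arrays used, of 23 in the series, were the 4 labelled as old MICT and the 4 labelled as adult sedentary control, chosen by those labels, and the old sedentary arrays took no part in the main comparison. All mice were male C57BL/6J. The old MICT mice started at 24 months, ran once a day for 45 min at 13 m/min for 4 weeks and were 25 months old at the end. The adult sedentary mice started at 5 months, were 6 months old at the end and were exposed to a treadmill that was switched off. The tissue was gastrocnemius, the large muscle of the calf, collected once the mice had rested for 12 h, and each 1-colour Agilent array received label made from 200 ng of its RNA. Training and age differed together between these groups, so their parts in a difference cannot be told apart. Further groups used beside them were old HIIT (high-intensity intermittent training, 3 runs of 2 min at 27 m/min a day, 4 arrays, also 25 months old) and adult MICT (3 arrays, 6 months old). Adult HIIT (the same intermittent runs, 4 arrays, 6 months old) entered only fits that shared the spread over 19 or 23 arrays. Those over all 23 arrays also took in old sedentary (not trained, 4 arrays, 25 months old).

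Gastrocnemius of the mouse is built mostly of fast-twitch fibres, and its fibres burn fuel in mitochondria through the tricarboxylic acid cycle and the respiratory chain. Fibre mass depends on the balance of protein synthesis and breakdown. FOXO transcription factors and the glucocorticoid receptor, which is activated by the stress hormone corticosterone in mice, are known to switch on the ubiquitin ligases that mark muscle proteins for the proteasome. Collagens of the matrix around the fibres are made mainly by fibroblasts, and the muscle clock, a loop of activators and repressors such as the Per and Cry proteins, sets daily rhythms in fuel genes.

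Signal is given throughout as log2 of the processed intensity minus the array's own 75th percentile, so that 0 is that percentile. The share of gene spots well above background was 49.5% to 54.5% on old MICT arrays and 50.3% to 55.3% on adult sedentary arrays. The defining fast-twitch transcript of this muscle, Myh4 (fast myosin heavy chain IIb), was at 10.11, 9.92, 9.62 and 10.39 on old MICT arrays 1 to 4 and at 10.10, 9.54, 10.09 and 9.62 on adult sedentary arrays 1 to 4, far above the 75th percentile on all 8. The old MICT arrays shared slide 3 with old HIIT, the adult sedentary arrays shared slide 1 with adult HIIT, and no slide held both old MICT and adult sedentary, so slide and group cannot be told apart. Adult sedentary array 2 stood apart in its slow-twitch fibre, cell cycle and collagen transcripts, and old MICT arrays 1 and 2 in their glucocorticoid-responsive transcripts. Where results of the main comparison rest on these arrays, the paragraph mostly also gives values without them. The comparisons with old HIIT and adult MICT were not refitted without old MICT arrays 1 and 2 together. The labels do not tie each array to a mouse, and p-values here measure the spread between these arrays. In whole muscle, fewer cells of a type and less RNA per cell cannot be told apart.

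A feature was called when limma's Benjamini-Hochberg adjusted p was under 0.05. An uncalled feature was placed at the adult level when the 95% confidence interval of its difference lay within 1.5-fold either way, and was otherwise left undetermined. Of 23815 features tested, 14039 of them with a gene symbol, 4 rose (0.0168%) and 3 fell (0.0126%) in old MICT muscle, 0.0294% in all. At the adult level were 9268 features (38.9%), and 14540 were undetermined. The unadjusted p was under 0.05 for 2220 features in the higher direction (9.32%) and for 1450 in the lower (6.09%), and all old MICT arrays lay above all adult sedentary arrays for 1404 features (5.9%) and below them for 767 (3.22%). The median difference over all features was 0.03. Leaving out old MICT array 1, 2, 3 or 4 gave 4, 3, 11 and 20 called features, and leaving out any 1 of the 4 adult sedentary arrays gave 0. An additive model of age, training and slide over all 23 arrays called 0 features and placed 43 at the adult level. It rebuilds the difference from the means of all groups, old sedentary included, so its intervals are wider by design.

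The share at the adult level depended on how bright a feature was. It was 10.4% in the dimmest quartile of mean signal, 31.2% in the second, 48.4% in the third and 65.6% in the brightest, where intervals were narrowest (median standard error 0.14, against 0.28 in the dimmest). Being undetermined is therefore no sign of a difference. Lists differed in brightness, so the members of each list that lay in the brightest quartile are given beside its count, where 65.6% of all features were at the adult level.

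**Figure D1:**
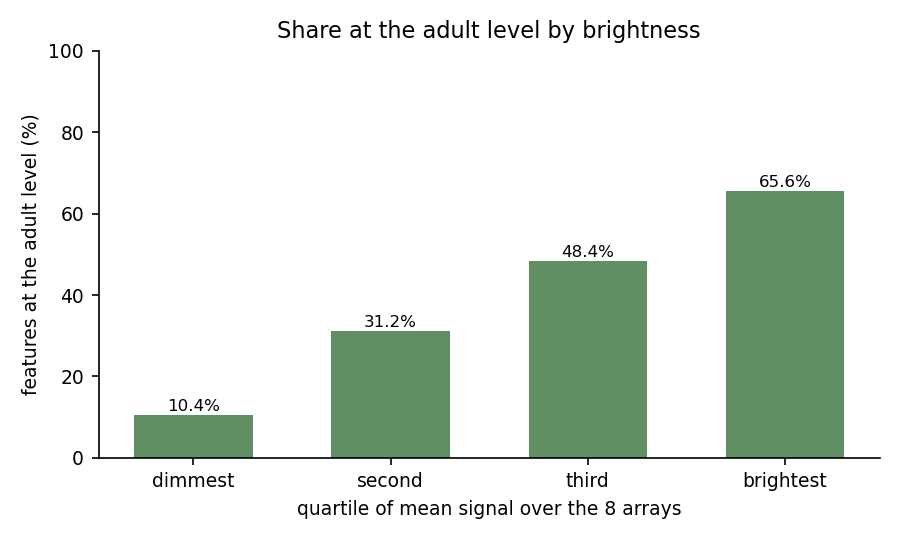
Bars show the percentage of features at the adult sedentary level in each quartile of mean signal over the 8 arrays, from 10.4% in the dimmest to 65.6% in the brightest.

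The genes of oxidative energy production stood at the adult level almost throughout. Of 77 respiratory chain and ATP synthase genes tested, 74 were at the adult level (96.1%), and the median difference was 0.09. In the brightest quartile lay 76 of the 77, of which 73 were at the adult level. The median standard error of the 77 was 0.10, beside 0.14 over that quartile, so their share and the quartile's are not matched for precision. By complex, 35 of 36 tested complex I genes, 3 of 4 of complex II, 9 of 9 of complex III, 11 of 12 of complex IV and 15 of 15 of ATP synthase were at the adult level. The 3 undetermined genes were Ndufc2 at 0.26, Sdhd at 0.66 and Cox6c at 0.30. One further member, Ndufb3, was not tested, because its spot was flagged on at least 1 of the 8 arrays. On the scale of a score, the median over these genes of an array's deviation from the adult sedentary mean, the old MICT arrays stood at 0.08, 0.05, 0.04 and 0.15 and the adult sedentary arrays at 0.16, -0.11, 0.05 and -0.10, so the groups overlapped.

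Ndufa7, an accessory subunit of complex I, was at 7.60, 7.55, 7.54 and 7.59 in old MICT muscle and at 7.67, 7.50, 7.66 and 7.62 in adult sedentary muscle. Its difference was -0.04, with a 95% interval of -0.23 to 0.14. Uqcrh, the hinge protein of complex III, was at 8.65, 8.61, 8.61 and 8.70 in old MICT muscle and at 8.64, 8.46, 8.50 and 8.42 in adult sedentary muscle, a difference of 0.14 (interval -0.05 to 0.32). The old MICT arrays of both genes lay inside a band narrower than that of the adult sedentary arrays.

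In the tricarboxylic acid cycle and pyruvate dehydrogenase list, 19 of 22 genes (86.4%) were at the adult level, with a median difference of 0.12, and 18 of the 21 in the brightest quartile. Ogdh, the dehydrogenase that acts on 2-oxoglutarate, differed by 0.06 (interval -0.15 to 0.26), and Mpc1, a subunit of the mitochondrial pyruvate carrier, by 0.13 (interval -0.06 to 0.32). Idh3g, a regulatory subunit of the NAD-dependent isocitrate dehydrogenase, differed by -0.05 (interval -0.28 to 0.19), and Suclg2, a subunit of GDP-forming succinyl-CoA ligase, by -0.09 (interval -0.39 to 0.20). The 3 undetermined members were Idh2, Pdhb and Pdhx.

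**Figure D2:**
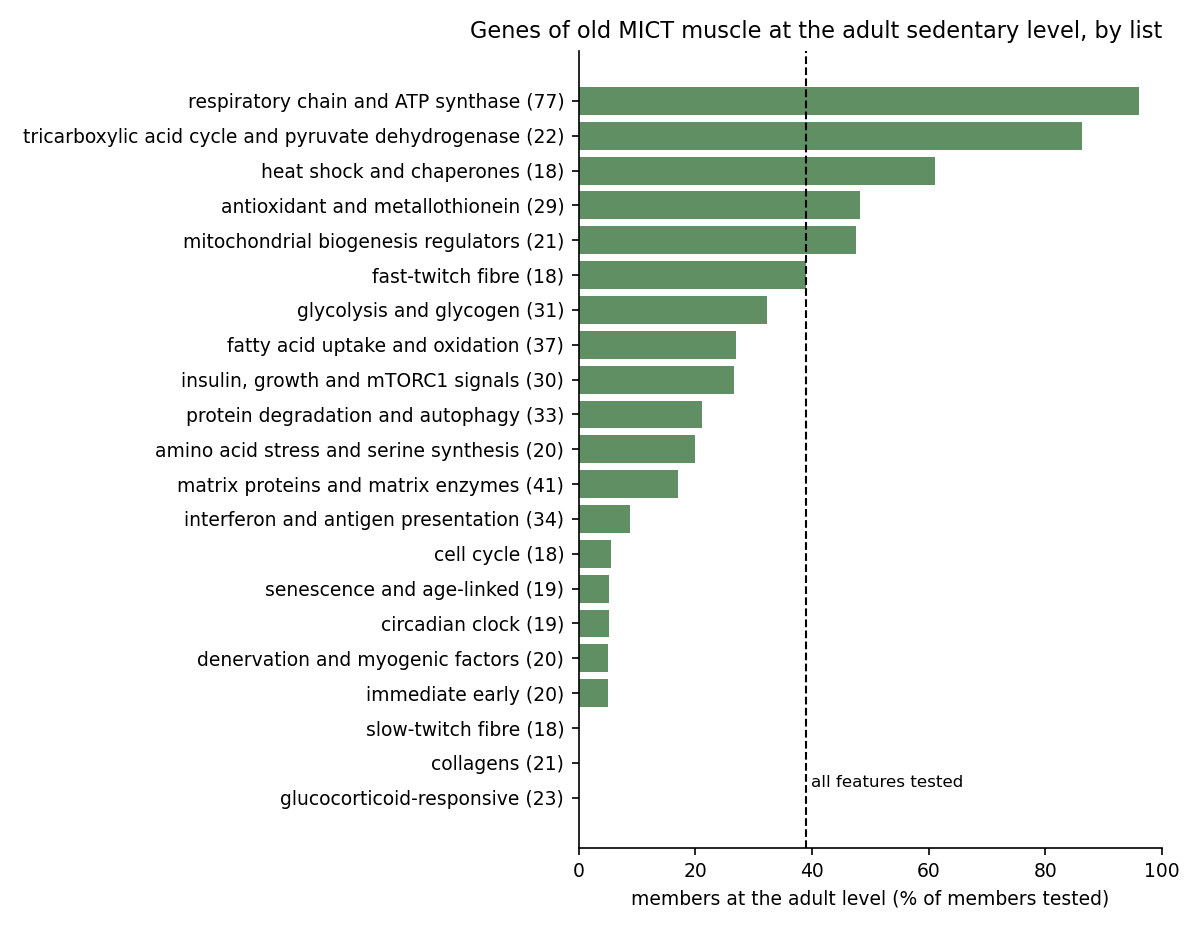
Bars show, for each of 21 pathway lists (number of members tested in brackets), the percentage of members at the adult sedentary level in old MICT muscle. The dashed line marks the 38.9% of all features tested, at any brightness, and the lists run from 96.1% for the respiratory chain to 0 for the glucocorticoid-responsive, collagen and slow-twitch lists.

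Regulators of mitochondrial number were at the adult level in 10 of 21 cases (47.6%), and in 9 of the 13 in the brightest quartile. Tfam, which packages and transcribes mitochondrial DNA, was at 3.61, 3.74, 3.82 and 3.70 in old MICT muscle and at 3.53, 3.29, 3.49 and 3.43 in adult sedentary muscle. The groups did not overlap, yet the difference of 0.28 (interval 0.05 to 0.52) stayed within the 1.5-fold bound, and 3 probes of the gene ran from -0.18 to 0.28. Ppargc1a, the coactivator PGC-1alpha that drives mitochondrial gene programs, was at 2.43, 2.47, 3.45 and 3.29 in old MICT muscle and at 3.30, 3.07, 3.76 and 3.14 in adult sedentary muscle, a difference of -0.41 (interval -1 to 0.18). Arrays 1 and 2 of old MICT were the 2 lowest of the 8, and without them the difference was 0.05. Ppargc1b, a related coactivator chosen here after its values were seen, showed the same arrangement, at -2.50, -2.36, 0.08 and 0.01 in old MICT muscle and between 0.00 and 0.17 in adult sedentary muscle.

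Antioxidant genes were at the adult level in 14 of 29 cases (48.3%) and in 10 of the 21 in the brightest quartile, among them Gpx4, a lipid peroxide reductase, at -0.04 (interval -0.24 to 0.16). Heat shock proteins and chaperones were at the adult level in 11 of 18 cases (61.1%), and in 10 of the 16 in the brightest quartile. Glycolysis and glycogen genes were at it in 10 of 31 cases (32.3%), and in 9 of the 27 in the brightest quartile. Slc2a4, the insulin-regulated glucose transporter GLUT4, was at 7.59, 8.09, 7.83 and 7.93 in old MICT muscle and at 7.86, 7.60, 8.01 and 7.82 in adult sedentary muscle, a difference of 0.04 (interval -0.25 to 0.33).

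Contractile genes were read by fibre type. Among fast-twitch genes 7 of 18 (38.9%) were at the adult level, all 7 among the 17 in the brightest quartile, including Myh1, fast myosin heavy chain IIx, at 0.06 (interval -0.29 to 0.40), and Myoz1, a Z-disc protein, at -0.06 (interval -0.43 to 0.31). Myh4 differed by 0.17 (interval -0.25 to 0.59), just past the bound. Atp2a1, the fast-fibre calcium pump, differed by -0.07 and Myh2, fast myosin heavy chain IIa, by -0.35, with old MICT array 2 at 7.73 and the other old MICT arrays at 9.04 to 9.31, beside 9.03 to 9.30 on adult sedentary arrays. Without that array Myh2 differed by 0.02.

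Among slow-twitch genes 0 of 18 were at the adult level, and 15 of the 18 lay in the brightest quartile. An unadjusted p under 0.05 was reached by 6, all with a negative difference, beside 6.09% of all features. Myh7, the slow myosin heavy chain, was at 6.84, 6.44, 3.33 and 7.11 in old MICT muscle and at 6.4, 9.01, 7.44 and 7.67 in adult sedentary muscle. Its difference was -1.70 ± 0.82 (SE, n = 4 arrays each; adjusted p = 0.35). The groups overlapped, with old MICT array 3 low and adult sedentary array 2 high, and the difference was -0.83 without old MICT array 3. The list's median of -0.83 was -0.38 without adult sedentary array 2, whose score was 1.36, beside -1.26 to -0.53 on old MICT arrays and -0.69, -0.45 and 0.01 on the other adult sedentary arrays. The additive model with slide, which rests on the means of all groups, gave 0.93.

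The 7 called features included 2 named genes. Krt18, a keratin of simple epithelia, was at 1.71, 1.01, 2.17 and 1.65 in old MICT muscle and at -0.96, -0.35, -0.37 and -0.71 in adult sedentary muscle. It rose by 2.23 ± 0.25 on the log2 scale, 4.70-fold (adjusted p = 0.0259). All old MICT arrays lay above all adult sedentary arrays. The scores of the 5 keratinocyte markers tested were -0.88, 1.81, -0.39 and -0.38 in old MICT muscle and -0.21, -0.05, 0.13 and -0.12 in adult sedentary muscle. These markers were chosen for keratinocytes and not for simple epithelia, and the part of any epithelial cells in the Krt18 difference was not tested. Prss55, a serine protease known from testis, was at -1.92, -2.54, -2.43 and -1.53 in old MICT muscle and at 0.29, -0.31, -0.01 and 0.35 in adult sedentary muscle. It fell by 2.18 ± 0.25, so that the adult sedentary level was 4.54 times as high (adjusted p = 0.0326). Again the groups did not overlap. The adjusted p was 0.0531 for Krt18 and 0.0546 for Prss55 when the variance had no intensity trend, and both were lost without old MICT array 1 (0.0828 each) and without any 1 adult sedentary array (0.0913 to 0.209). That of Prss55 was also lost without old MICT array 2 or 3 (0.0829 and 0.0623).

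The other 5 called features carry no gene symbol in the tables used. Probes of the transcript ENSMUST00000195192 gave 2 of them. One was at 3.43, 4.26, 4.11 and 3.67 in old MICT muscle and at 1.98, 1.40, 1.83 and 1.76 in adult sedentary muscle, and rose by 2.13 ± 0.21 (adjusted p = 0.018). The second rose by 2.45 ± 0.25 (adjusted p = 0.018), and the 2 are not independent. A probe of ENSMUST00000103420 was dim, at -1.85, -1.35, -1.26 and -1.83 in old MICT muscle and at -4.10, -4.50, -3.85 and -3.71 in adult sedentary muscle, and rose by 2.47 ± 0.24 (adjusted p = 0.018). On old HIIT arrays the same transcripts spread far more widely, at 2.65 to 6.93 and at -2.83 to 1.27. Both features that fell, by 2.42 ± 0.30 and by 1.62 ± 0.18 (adjusted p = 0.0439 and 0.0259), were noncoding interval probes that the array design places on the forward strand of chromosome 4 in mm9, chr4:119967625-119978325 and chr4:119963954-119976499. The intervals overlap, so they may count 1 transcript.

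Below the threshold came further genes of the 10 with the smallest p, whose adjusted p ran from 0.0558 to 0.0982. Kcnab1, a potassium channel beta subunit, differed by 1.88 ± 0.26, and Vipr2, a receptor for vasoactive intestinal peptide, by 1.43 ± 0.21. Lonp2, the peroxisomal Lon protease, was at 5.13, 4.89, 4.92 and 5.06 in old MICT muscle and at 4.38, 4.09, 4.25 and 4.19 in adult sedentary muscle, a difference of 0.77 ± 0.11. None of these 3 genes overlapped between the groups. Fam160a1 differed by 0.79 ± 0.12 on its brighter probe and by -0.10 on the other. Ttbk1, a kinase of tau protein, was well above background on 0 of 4 old MICT arrays and 4 of 4 adult sedentary arrays, at least 2.10-fold lower in old MICT muscle. Tecta, a protein of the inner ear's tectorial membrane, was above it on 0 of 4 old MICT and 3 of 4 adult sedentary arrays, at least 1.20-fold lower. Both passed the filter through the adult sedentary arrays alone.

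**Figure D3:**
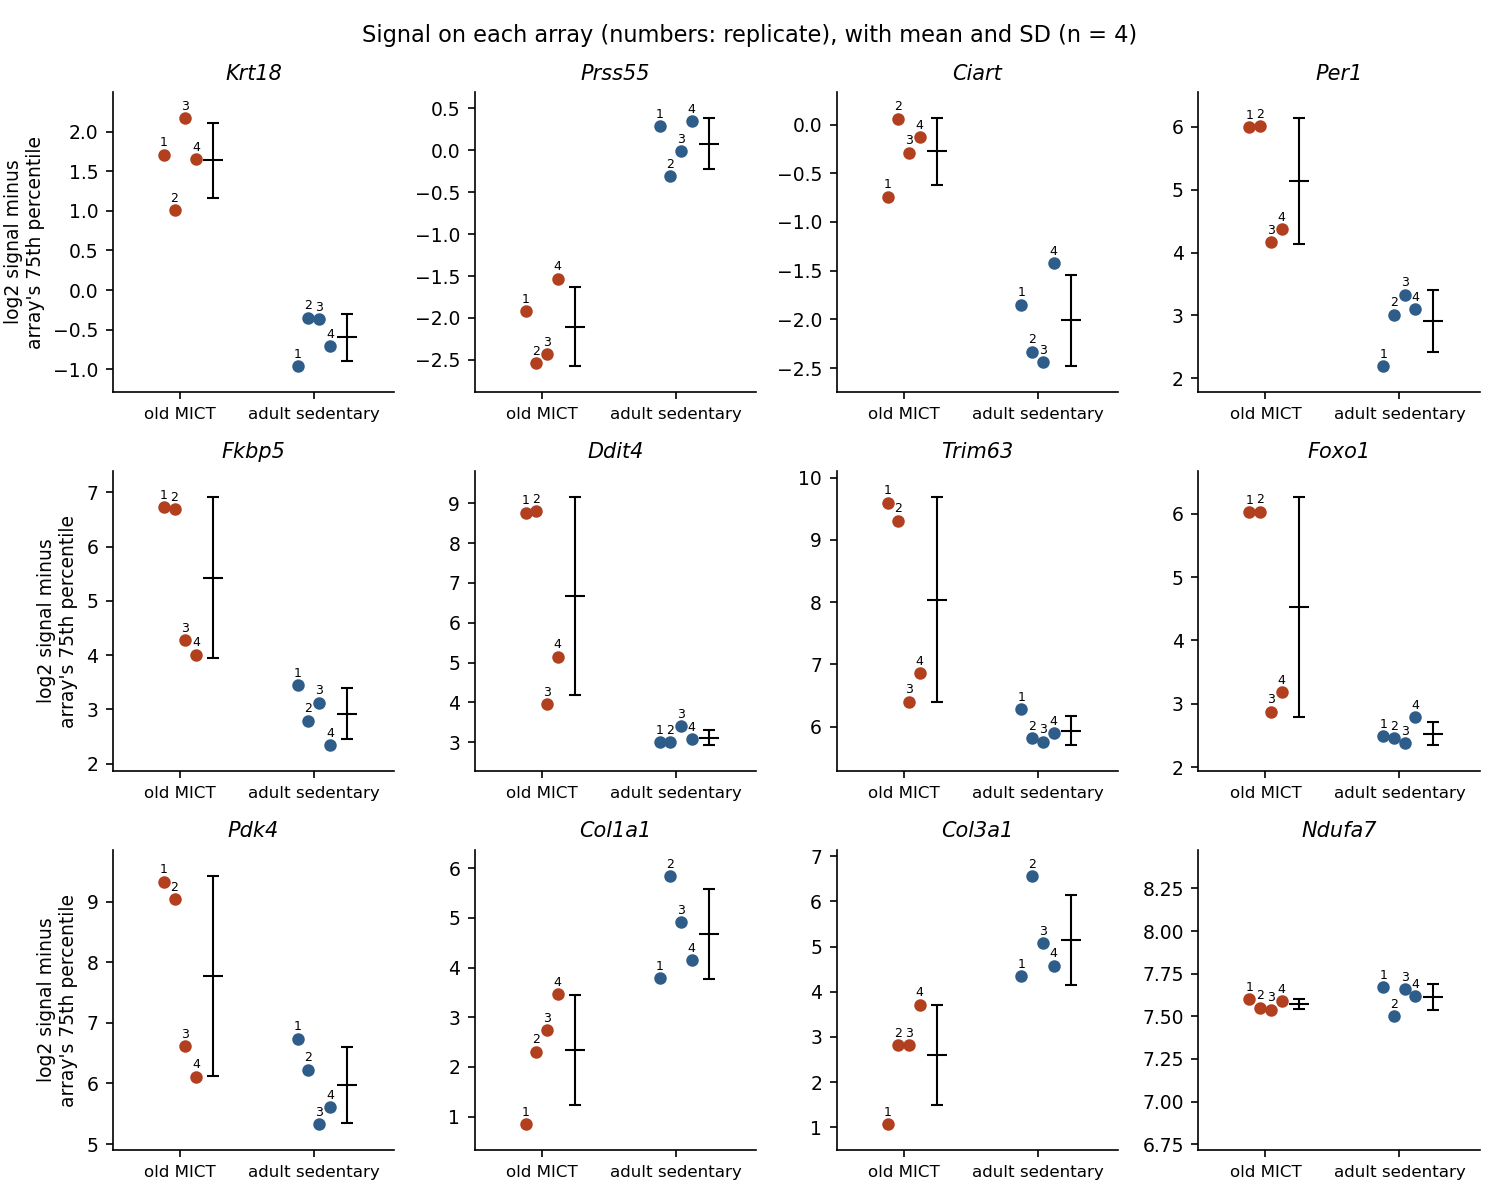
Each panel plots the signal of a gene (log2 minus the array's 75th percentile) on the 4 old MICT arrays (left) and the 4 adult sedentary arrays (right), numbered by replicate, with the mean and SD. Krt18 and Prss55 are tight in both groups, Per1, Fkbp5, Ddit4, Trim63, Foxo1 and Pdk4 have old MICT arrays 1 and 2 far above arrays 3 and 4, and Ndufa7 lies within 7.50 to 7.67 on all 8.

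Ciart, also among those 10, is a repressor of the circadian clock, and a second clock repressor, Per1, stood among the glucocorticoid-responsive genes. The reference windows before and after their starts are printed here because both genes were on the higher side without overlap, and that of Trim63, described further on, because it holds a glucocorticoid response element beside a FOXO site. Each runs 5′ to 3′ from 250 bases before to 50 after the start, from RefSeq on GRCm38.p6. Capitals mark only some of the motifs named next. These are the E-box in Ciart, the E-box and D-box in Per1, and the glucocorticoid response element and FOXO site in Trim63. Motifs searched on both strands were the E-box CACGTG bound by clock activators, the D-box TTATGNAA, the glucocorticoid response element, GNACA and TGTNC with any 3 bases between them, and the FOXO site TGTTTAC.
Ciart, chr3:95882179-95882478, reverse strand: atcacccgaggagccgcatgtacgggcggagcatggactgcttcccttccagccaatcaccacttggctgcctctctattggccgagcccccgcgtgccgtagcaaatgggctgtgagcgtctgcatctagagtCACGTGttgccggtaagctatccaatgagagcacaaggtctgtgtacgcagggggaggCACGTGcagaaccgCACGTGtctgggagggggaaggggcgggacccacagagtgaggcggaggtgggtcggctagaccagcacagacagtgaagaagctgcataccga
Per1, chr11:69098699-69098998, forward strand: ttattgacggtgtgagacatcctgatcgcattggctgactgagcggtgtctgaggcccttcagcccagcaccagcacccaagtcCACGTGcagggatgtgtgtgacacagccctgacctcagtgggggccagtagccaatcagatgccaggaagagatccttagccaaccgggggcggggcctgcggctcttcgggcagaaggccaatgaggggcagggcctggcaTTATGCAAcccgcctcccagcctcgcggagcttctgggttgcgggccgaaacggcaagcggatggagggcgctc
Trim63, chr4:134314870-134315169, forward strand: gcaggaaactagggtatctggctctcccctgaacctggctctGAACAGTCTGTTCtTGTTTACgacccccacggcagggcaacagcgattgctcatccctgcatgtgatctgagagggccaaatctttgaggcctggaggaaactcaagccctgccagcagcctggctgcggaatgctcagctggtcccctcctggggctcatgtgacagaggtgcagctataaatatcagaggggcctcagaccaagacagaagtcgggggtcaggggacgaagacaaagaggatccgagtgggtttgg

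The Ciart window holds 3 E-boxes, and the first of 2 Per1 windows holds 1 E-box and 1 D-box. An E-box is present in 7.15% of all 32851 windows and a D-box in 3.38%. In the Trim63 window the glucocorticoid response element, present in 0.475% of windows, and the FOXO site, present in 3.65%, are separated by a single base. A FOXO site is present in 1 of the 26 degradation genes with a window, Trim63 itself, against 4.05% of all symbols, and a glucocorticoid response element in 3 of the 21 glucocorticoid-responsive genes with a window (Mt1, Serpina3n and Sgk1), against 0.537%. Trim63 was chosen for printing with these matches known. These matches describe the letters of the reference and show nothing about binding in these muscles. Of the clock list, 5 of the 16 tested genes that have a window hold an E-box in at least 1 (Bhlhe41, Ciart, Cry1, Per1 and Tef), against 8.09% of all symbols. Those 5 did not share a direction: Bhlhe41 differed by -0.77 and Cry1 by -0.23, and Tef by 0.56.

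Ciart was at -0.74, 0.06, -0.29 and -0.13 in old MICT muscle and at -1.85, -2.33, -2.44 and -1.42 in adult sedentary muscle. Its difference was 1.74 ± 0.26 (adjusted p = 0.0982). Per1 was at 6.00, 6.01, 4.17 and 4.37 in old MICT muscle and at 2.19, 3.01, 3.33 and 3.1 in adult sedentary muscle, a difference of 2.23 ± 0.45 (adjusted p = 0.216). No old MICT array of either gene overlapped an adult sedentary array. With the spread shared over 19 arrays of 5 groups, the same Per1 difference had a standard error of 0.39 and an adjusted p of 0.0261. That fit takes the spread as equal in all groups and does not allow for the wider spread of Per1 between old MICT arrays. Of 19 clock genes tested 1 was at the adult level, 5 had all old MICT arrays above all adult sedentary arrays (5.9% of all features did), and the median difference was 0.45. Without old MICT arrays 1 and 2 Per1 differed by 1.37 and Ciart by 1.81. Cry2, a further repressor, chosen here after its values were seen, differed by 1.59 ± 0.41, also without overlap, and by 0.74 without those arrays.

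The glucocorticoid-responsive list had a median difference of 1.57, with 0 of 23 members called, 0 at the adult level and 23 undetermined, 16 of them in the brightest quartile. An unadjusted p under 0.05 was reached by 17 members in the higher direction and 1 in the lower, and 11 had all old MICT arrays above all adult sedentary arrays, where 9.32% and 5.9% of all features did so. The arrays' scores were 3, 2.77, 0.55 and 0.36 in old MICT muscle and -0.16, 0.10, 0.12 and -0.05 in adult sedentary muscle. Arrays 1 and 2 of old MICT thus stood several times farther from the adult level than arrays 3 and 4, and without arrays 1 and 2 the list's median was 0.46.

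Ddit4, an inhibitor of mTORC1 known to be induced by glucocorticoids, was at 8.76, 8.80, 3.95 and 5.15 in old MICT muscle and at 3, 3, 3.40 and 3.07 in adult sedentary muscle. Its difference was 3.55 ± 0.99 (adjusted p = 0.241). Cebpd, a transcription factor of the acute stress response, was at 9.25, 8.96, 4.88 and 5.85 in old MICT muscle and at 3.71, 4.69, 4.42 and 3.78 in adult sedentary muscle, a difference of 3.08 ± 0.89 (adjusted p = 0.241). Fkbp5, a chaperone of the glucocorticoid receptor, was at 6.73, 6.69, 4.27 and 4.01 in old MICT muscle and at 3.44, 2.79, 3.12 and 2.34 in adult sedentary muscle, a difference of 2.51 ± 0.62 (adjusted p = 0.238). In all 3 genes the old MICT arrays lay above the adult sedentary arrays, with arrays 1 and 2 far above arrays 3 and 4. Without arrays 1 and 2 Ddit4 differed by 1.43, Cebpd by 1.22 and Fkbp5 by 1.22.

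Klf15, a factor that links glucocorticoids to amino acid use, differed by 1.47 ± 0.43, Cebpb by 1.41 ± 0.44 and Cdkn1a, the cell cycle inhibitor p21, by 2.83 ± 0.77, all without overlap. Without old MICT arrays 1 and 2 these differences were 0.56, 0.51 and 1.22. The metallothioneins Mt1 and Mt2, which bind zinc, did overlap: Mt1 was at 8.41, 9.49, 6.24 and 5.24 in old MICT muscle and at 4.58, 6.70, 4.67 and 4.63 in adult sedentary muscle, a difference of 2.20 ± 0.87. Mt2 differed by 2.33 ± 1.02, and without old MICT arrays 1 and 2 the differences were 0.59 for Mt1 and 0.63 for Mt2. Bcl6, a transcriptional repressor and the single member with a low unadjusted p in the other direction, differed by -1.45 ± 0.49, at 3.50, 3.78, 5.67 and 5.51 in old MICT muscle and at 5.82, 5.67, 6.74 and 6.03 in adult sedentary muscle. Without old MICT arrays 1 and 2 it differed by -0.47.

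**Figure D4:**
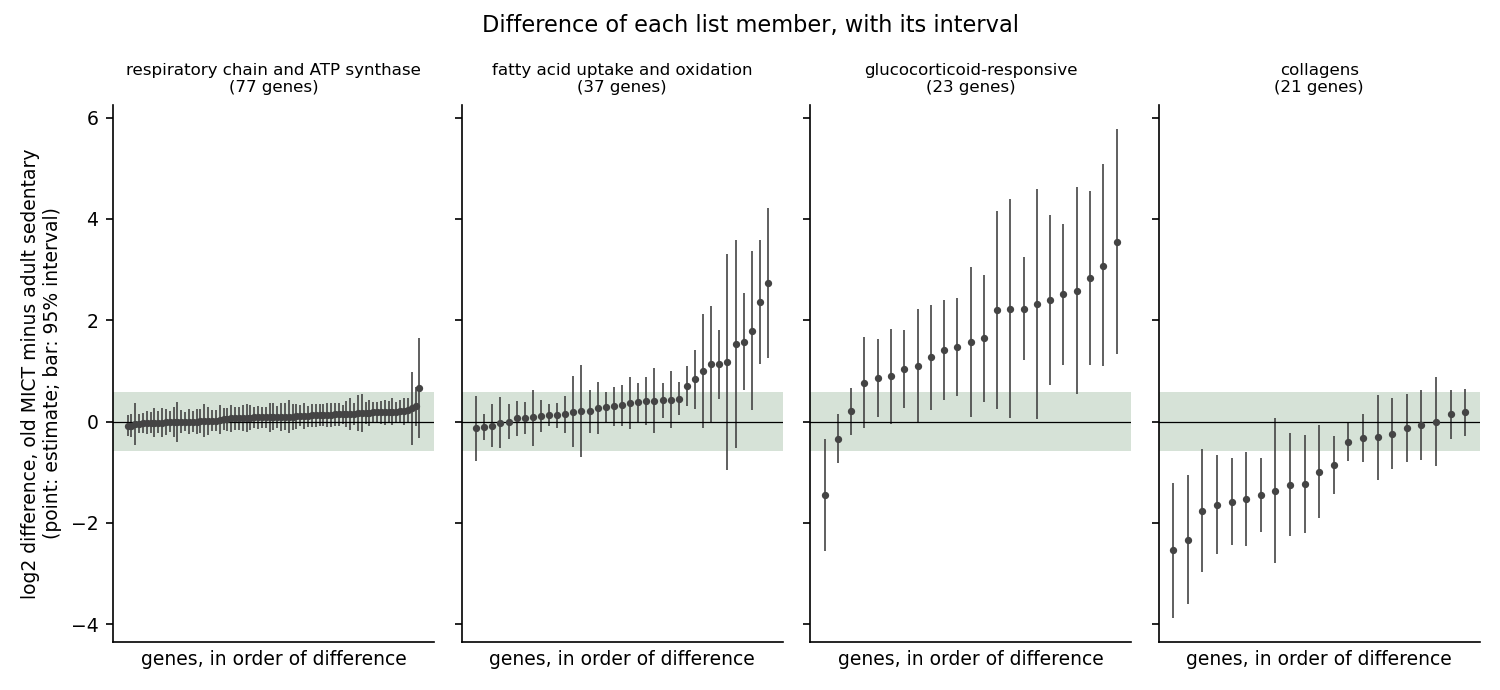
Points show the log2 difference (old MICT minus adult sedentary) of every tested member of 4 lists in order of size, with 95% intervals as bars, and the shaded band marks 1.5-fold either way. Respiratory chain intervals are short and stay within the band for 74 of 77 genes, and those of the glucocorticoid-responsive and collagen lists leave it in every case.

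Of 33 protein degradation and autophagy genes tested, 0 were called and 7 (21.2%) were at the adult level, 6 of them among the 29 in the brightest quartile. An unadjusted p under 0.05 was reached by 21 in the higher direction and 0 in the lower, beside 9.32% and 6.09% of all features. All old MICT arrays lay above all adult sedentary arrays for 15, beside 5.9% of all features, and the median difference was 0.50. Trim63, the muscle ubiquitin ligase MuRF1 whose promoter window is printed above, was at 9.60, 9.31, 6.4 and 6.86 in old MICT muscle and at 6.28, 5.82, 5.76 and 5.89 in adult sedentary muscle, a difference of 2.11 ± 0.66 (adjusted p = 0.253). Fbxo32, the ubiquitin ligase atrogin-1, was at 7.51, 6.96, 5.06 and 4.66 in old MICT muscle and at 4.71, 3.87, 3.99 and 4.14 in adult sedentary muscle, a difference of 1.87 ± 0.58 (adjusted p = 0.248). Foxo1, which encodes a FOXO factor, was at 6.02, 6.03, 2.88 and 3.19 in old MICT muscle and at 2.49, 2.46, 2.38 and 2.79 in adult sedentary muscle, a difference of 2.00 ± 0.69 (adjusted p = 0.265). Arrays 3 and 4 of old MICT came close to the adult sedentary arrays in all 3 genes, and for Fbxo32 overlapped them. Without old MICT arrays 1 and 2 Trim63 differed by 0.70, Fbxo32 by 0.68 and Foxo1 by 0.50.

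Other degradation genes were nearer to the adult level. Sqstm1, the autophagy cargo receptor p62, differed by 0.60 ± 0.25, and by 0.16 without old MICT arrays 1 and 2. Gabarapl2, an autophagosome protein, differed by 0.06 (interval -0.16 to 0.27) and Psmb5, a catalytic proteasome subunit, by 0.26 (interval 0.02 to 0.50), both at the adult level. Foxo3, a FOXO factor, was well above background on 2 old MICT arrays and 0 adult sedentary arrays and was not tested. The list's array scores were 1.08, 0.61, 0.23 and 0.22 in old MICT muscle and -0.09 to 0.07 in adult sedentary muscle, and without old MICT arrays 1 and 2 the median difference was 0.22.

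Fatty acid uptake and oxidation held genes on both sides of the bound. At the adult level were 10 of 37 (27%), 8 of them among the 26 in the brightest quartile, with the oxidation enzymes and carriers Cpt1b at 0.13 (interval -0.12 to 0.37), which admits fatty acids to mitochondria, and Etfb at 0.13 (interval -0.09 to 0.34), which passes their electrons on. An unadjusted p under 0.05 was reached by 9 in the higher direction and 0 in the lower, beside 9.32% and 6.09% of all features. All old MICT arrays lay above all adult sedentary arrays for 5, beside 5.9% of all features, and the median difference was 0.32. Acot2, a mitochondrial acyl-CoA thioesterase, was at 3.82, 2.36, 1.34 and 0.76 in old MICT muscle and at -0.09, -0.40, -0.51 and -0.18 in adult sedentary muscle, a difference of 2.36 ± 0.55 (adjusted p = 0.227) without overlap, and 1.34 without old MICT arrays 1 and 2.

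Pdk4, the kinase that holds back pyruvate oxidation, was at 9.33, 9.04, 6.62 and 6.11 in old MICT muscle and at 6.74, 6.23, 5.33 and 5.61 in adult sedentary muscle, a difference of 1.79 ± 0.70 (adjusted p = 0.288) that was 0.38 without old MICT arrays 1 and 2. Ucp3, a mitochondrial uncoupling protein, was at 3.81, 4.85, 0.69 and 0.53 in old MICT muscle and at 1.88, 0.24, 1.24 and 0.41 in adult sedentary muscle, a difference of 1.53 ± 0.92 that was -0.33 without old MICT arrays 1 and 2. Angptl4, a secreted inhibitor of lipoprotein lipase, had the same arrangement, with a difference of 1.17 ± 0.95 that was -0.70 without them. All 3 genes overlapped between the groups.

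Among growth and amino acid signals, Mstn, the muscle growth inhibitor myostatin, was at 5.29, 4.78, 3.18 and 3.81 in old MICT muscle and at 3.52, 2.57, 3.83 and 3.26 in adult sedentary muscle, a difference of 0.97 ± 0.44 that was 0.20 without old MICT arrays 1 and 2. Igf1, insulin-like growth factor 1, differed by 0.54 ± 0.42 and by -0.29 without them. Chac1, a glutathione-degrading enzyme induced by amino acid stress, was at 8.04, 7.97, 6.25 and 4.96 in old MICT muscle and at 5.53, 4.95, 5.76 and 4.54 in adult sedentary muscle, a difference of 1.61 ± 0.63 that was 0.41 without them. None of the 3 passed the test, and each overlapped between the groups.

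Of the 21 pathway lists, the collagens had the lowest median difference, -0.99. Of 21 genes tested, 0 were called and 0 were at the adult level, 12 had an unadjusted p under 0.05 with a negative difference and 0 with a positive one, and 6 had all old MICT arrays below all adult sedentary arrays, beside 6.09% and 3.22% of all features. The median difference was -0.63 without adult sedentary array 2 and also -0.63 without old MICT arrays 1 and 2, and 5 of the 21 lay in the brightest quartile. Col3a1, a chain of fibrillar collagen III, was at 1.07, 2.81, 2.81 and 3.71 in old MICT muscle and at 4.35, 6.56, 5.08 and 4.58 in adult sedentary muscle, a difference of -2.54 ± 0.59 (adjusted p = 0.227). Col1a1, a chain of fibrillar collagen I, was at 0.85, 2.31, 2.74 and 3.47 in old MICT muscle and at 3.79, 5.84, 4.91 and 4.15 in adult sedentary muscle, a difference of -2.33 ± 0.57 (adjusted p = 0.237). Neither gene overlapped, old MICT array 1 was the lowest of the 8 in both, and adult sedentary array 2 the highest. The basement membrane chain Col4a1, chosen after its values were seen, differed by 0.00 ± 0.39.

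Of 41 further matrix proteins and matrix enzymes, 7 (17.1%) were at the adult level and 17 had an unadjusted p under 0.05, all with a negative difference, beside 6.09% of all features. Their median difference was -0.33, and -0.20 without adult sedentary array 2. Fbn1, the microfibril protein fibrillin-1 and chosen here as the member with the smallest p, was at 0.03, 0.27, 0.92 and 1.02 in old MICT muscle and at 1.96, 3.15, 2.18 and 2.05 in adult sedentary muscle, a difference of -1.78 ± 0.31 (adjusted p = 0.127) without overlap. At the adult level were Dcn, the proteoglycan decorin, at 0.25 (interval -0.02 to 0.51), Timp2, an inhibitor of matrix proteases, at -0.12 (interval -0.36 to 0.12), and Lama2, a laminin chain of the fibre's basement membrane, at 0.20 (interval -0.06 to 0.45). Sharing the spread over 19 arrays, with it taken as equal in all groups, gave adjusted p of 0.0386 for Col3a1 and 0.015 for Fbn1.

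Of 10 fibroblast markers tested, 6 had an unadjusted p under 0.05 with a negative difference, beside 6.09% of all features. At the adult level were 3, Dcn, Gsn and Pdgfra, the last a receptor that defines fibroblasts in muscle. Pdgfra was at 1.46, 1.53, 1.64 and 1.52 in old MICT muscle and at 1.84, 1.88, 1.77 and 1.77 in adult sedentary muscle, a difference of -0.28 (interval -0.52 to -0.04) without overlap. The 10 markers' scores were -0.91 to -0.26 in old MICT muscle and -0.20 to 0.29 in adult sedentary muscle, and Col1a1 is 1 of the 10. Their part in the collagen difference was not tested.

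**Figure D5:**
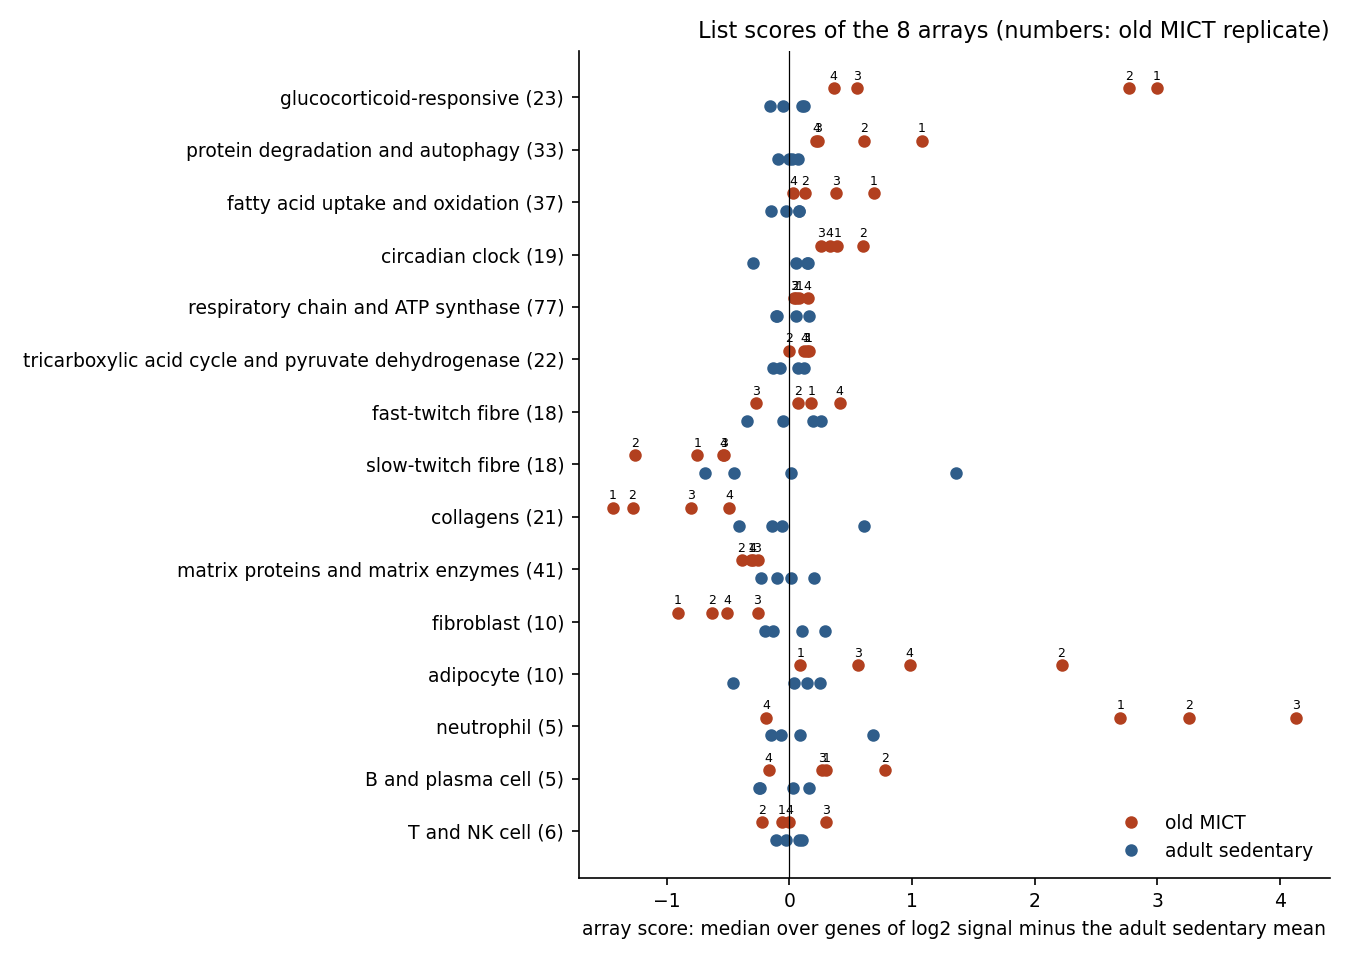
Points show the score of each array for 15 lists (number of genes in brackets), the median over a list's genes of the log2 signal minus the adult sedentary mean, with old MICT above adult sedentary in each row. Old MICT arrays 1 and 2 reach 3 and 2.77 for the glucocorticoid-responsive list, collagen scores are -1.44 to -0.49 in old MICT muscle, and respiratory chain scores stay between -0.11 and 0.16 on all 8 arrays.

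Markers of cells other than fibres varied between the old MICT arrays. Adipocyte scores were 0.09, 2.22, 0.56 and 0.98 in old MICT muscle and 0.25, -0.46, 0.14 and 0.04 in adult sedentary muscle. Adipoq, the adipocyte hormone adiponectin, was at 1.64, 4.18, 2.60 and 3.40 in old MICT muscle and at 2.08, 1.19, 2.17 and 2.07 in adult sedentary muscle, a difference of 1.08 ± 0.48. Plin1, which coats fat droplets, differed by 1.42 ± 0.51. Lep, the hormone leptin, was well above background on 3 old MICT arrays and 1 adult sedentary array, and it passed the filter through the old MICT arrays alone, so no difference is given. Old MICT arrays 1 and 2, which were the highest for Pdk4, Acot2 and Trim63, had the lowest and the highest adipocyte score of the 4 old MICT arrays. All 10 adipocyte markers were tested, and their part in the fatty acid differences was not tested.

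Of 9 neutrophil markers 5 were tested, and their scores were 2.70, 3.26, 4.13 and -0.19 in old MICT muscle and -0.15 to 0.68 in adult sedentary muscle. S100a9, a subunit of the granule protein calprotectin chosen after its values were seen, was at 3.34, 3.29, 4.20 and -0.43 in old MICT muscle and at -0.08, 0.57, -0.97 and -0.35 in adult sedentary muscle, so old MICT array 4 lay among the adult sedentary arrays. Of 9 B and plasma cell markers 5 were tested, 4 with a positive and 1 with a negative difference (median 0.47). Ms4a1, which encodes CD20, was above background on 1 old MICT array and 0 adult sedentary arrays, and Cd79a on 0 of either. Jchain, which joins antibody units and was chosen after its values were seen, was at -0.98, -0.85, 0.48 and -1.07 in old MICT muscle and at -1.48, -3.52, -2.68 and -3.12 in adult sedentary muscle, a difference of 2.10 ± 0.47 without overlap. Of 12 T and NK cell markers 6 were tested. Cd3g was above background on 0 old MICT arrays and 1 adult sedentary array, and Gzmb on 0 of either. Ccl5, a chemokine of cytotoxic lymphocytes, differed by 1.08 ± 0.29 with the groups overlapping. It was the only T and NK marker tested with a positive difference. The other 5 were negative, and the median of the 6 was -0.14.

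Across the 36 lists, 0 members were called in the 8-array fit. Of the 652 members that could also be tested over 19 arrays, 167 had an unadjusted p under 0.05 in the 8-array fit, beside 3670 of all 23815 features. With the 19 arrays of 5 groups sharing the spread, 79 features were called, 41 higher and 38 lower, of which 4 were among the 7 of the 8-array fit. That fit takes the spread as equal in all groups. Its standard errors were smaller than in the 8-array fit for Per1, Col3a1, Nmrk2 and Cxcl13, and larger for Krt18 and Prss55. The list members then called were Per1 and Gsr, a glutathione reductase, on the higher side and Col3a1, Col5a3, Fbn1, Lama4, Bmp1 and Calcr on the lower. Calcr, a satellite cell marker, was dim, at a mean of -5.10 in old MICT and -3.18 in adult sedentary muscle. In its list 1 of the 7 markers tested passed the filter through the adult sedentary arrays alone, so no difference is read from the Calcr call. Further genes called in that fit and chosen after their values were seen were Doc2b, Nmrk2 and Cxcl13. Doc2b, a calcium sensor of vesicle fusion, was well above background on 4 of 4 old MICT and 0 of 4 adult sedentary arrays, at least 15.1-fold higher in old MICT muscle. It passed the filter through the old MICT arrays alone, so its fitted difference and p are not given. Nmrk2, a muscle kinase that makes NAD from nicotinamide riboside, was at -0.27, 3.14, 3.85 and 5.33 in old MICT muscle and at 7.78, 7.03, 7.25 and 6.2 in adult sedentary muscle, a difference of -4.05 ± 0.97. Its groups did not overlap, and old MICT arrays differed from each other by more than the adult sedentary arrays did. Cxcl13, a chemokine that attracts B cells, was at 4.06, 2.89, 1.08 and 0.15 in old MICT muscle and at -1.40, -1.28, -1.07 and -1.44 in adult sedentary muscle, a difference of 3.34 ± 0.71. In the 8-array fit the adjusted p was 0.237 for Nmrk2 and 0.22 for Cxcl13, and in the 19-array fit 0.0352 for Nmrk2 and 0.0341 for Cxcl13. Without old MICT arrays 1 and 2 they differed by -2.48 and 1.91.

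Old HIIT arrays were hybridised on the same slide as the old MICT arrays and came from mice of the same age, and the comparison with them, which shares the old MICT arrays with the main one, tests the regimen within a slide. Of 24251 features tested 0 were called (0%), the smallest adjusted p was 0.0922, and 2894 (11.9%) had an unadjusted p under 0.05. Without old HIIT array 1, 429 features were called. Krt18 was at 0.66 to 2.10 on old HIIT arrays and differed by 0.54 between old MICT and old HIIT (adjusted p = 0.519), and Prss55 was at -3.02 to -1.26 and differed by 0.08 (adjusted p = 0.932). Col1a1 was at 3.75 to 4.89 on old HIIT arrays, above all old MICT arrays, with a difference of -1.86 (adjusted p = 0.303), and Col3a1 at 4.20 to 5.17, with a difference of -1.97 (adjusted p = 0.298). The median difference of the collagens was -0.64 and that of the glucocorticoid-responsive list 0.91, with 9 of 21 and 3 of 23 members at an unadjusted p under 0.05 in those directions. Of all 24251 features, 1422 had such a p in the lower direction and 1472 in the higher. Of 78 respiratory chain genes, 75 had intervals within 1.5-fold. The glucocorticoid-responsive value was not refitted without old MICT arrays 1 and 2, whose scores stood far above those of arrays 3 and 4. Lists of other cells had larger negative medians. The keratinocyte list was at -5.02, with 8 of 8 tested at an unadjusted p under 0.05. B and plasma cells were at -1.69 (6 of 8), the cell cycle at -1.23 (13 of 22) and T and NK cells at -1.13 (5 of 8). None of their members was called, and 1422 of all 24251 features had such a p in the lower direction. Against adult sedentary muscle only 5, 5, 18 and 6 members of these lists were tested. The added members, such as Krt1, Dsp and Sprr1a, passed the filter through the old HIIT arrays alone. The direction of these added members was thus fixed by the filter, so medians and counts that include them are not read as a measure of a difference. That of most other members was not fixed in this way, and the lists were not refitted without the added ones. The part of these cells in the Krt18, collagen and other values against old HIIT was not tested. Mki67, a marker of dividing cells, was at -2.30, -1.82, -1.39 and -3.10 in old MICT muscle and at -0.19 to 0.70 on old HIIT arrays, a difference of -2.39 (adjusted p = 0.0922), while old MICT and adult sedentary muscle differed by -0.42 ± 0.77, and by 0.37 without adult sedentary array 2.

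Adult MICT arrays, on slide 2, gave the comparison of ages under one regimen. Of 23282 features tested 0 were called (0%), the smallest adjusted p was 0.477, and 2373 (10.2%) had an unadjusted p under 0.05. Krt18 was at -0.79 to 1.34 on adult MICT arrays, a difference of 1.29 for old MICT (adjusted p = 0.483), and Prss55 at -1.19 to -0.65, a difference of -1.23 (adjusted p = 0.483). For Ddit4 the adult MICT arrays lay at 2.46 to 3.42, for Trim63 at 5.57 to 6.80 and for Col3a1 at 4.02 to 4.96, and the old MICT differences were 3.71, 1.77 and -1.87 (adjusted p = 0.483 each). The median difference was 1.5 for the glucocorticoid-responsive list and -0.81 for the collagens, and all 78 respiratory chain genes tested had intervals within 1.5-fold. The Ddit4, Trim63 and glucocorticoid-responsive values rest largely on old MICT arrays 1 and 2 and were not refitted without them. For Trim63 old MICT array 3 lay inside the adult MICT range.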

How the data were processed

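Per the file headers, the deposited intensity is the processed signal of Agilent Feature Extraction 12.0.3.1, from which the scanner software had removed background and spatial trend, with no scaling from array to array. The deposited background, outlier and saturation flags of each spot were used as a score of its quality. A deposited series table holds a score per spot whose making is not stated. It followed the log10 signal with r of at least 0.99954 and served as an alternative only.

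Of 62976 spots per array, 3671 controls and flagged spots were left out, spots of the 55681 probes were averaged as log2, and each array's 75th percentile was subtracted. A probe well above background on at least 3 arrays of either compared group was tested, with the brightest probe standing for a symbol. Symbols came from a RefSeq table (28331 of 29786 RefSeq probes matched). Where no array of a group was above background, a fold is a lower bound, with that group set to at least each array's lowest signal above background. limma 3.58.1 in R 4.3.3 fitted the compared groups with an intensity trend and 2-sided tests. Values after ± are standard errors.

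The members, the 36 lists and the rule for named genes were chosen with earlier results of these data known. The rule takes the called genes, the 10 with the smallest p, up to 2 list members at the adult level with the narrowest interval, and a set of muscle genes. Not every gene that the rule takes is reported here. Alternatives were other samples, background corrections, scalings, filters, variance models, a replicate block, the series table, other thresholds and each array left out. Leaving out old MICT arrays 1 and 2 together and the unadjusted threshold were added after seeing the data. The fit was also run on simulated data with the same spread in both groups. That run cannot show how the fit handles spread that differs between groups, and its outcome is not used here. The number of arrays limits the precision.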

Additional observations from a re-analysis of the deposited data

Results flagged for a closer look

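In 7 of 214 sets of 4 arrays (71 genes and 36 list scores in both groups), 1 array lay farther from the rest than Dixon's 95% critical value for 4 allows, where chance would give about 1 set in 20. On old MICT arrays these were Jchain at 0.48 on array 3, and Myh2 at 7.73 and Vipr2 at 1.17 on array 2. On adult sedentary array 2 they were Adipoq at 1.19, Cpt1b at 5.07 and Mt1 at 6.70, and on adult sedentary array 1 the endothelial score at -0.06.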

How the results depend on the processing

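Sharing the spread over 19 arrays of 5 groups gave 79 calls (41 higher, 38 lower) for old MICT minus adult sedentary and 2 for old MICT minus adult MICT, and all 23 arrays gave 157 (98 and 59) and 5. The additive model with slide gave 0 calls (0 higher, 0 lower) and 43 features at the adult level, with list members at that level down to 0 for fatty acid, 0 for respiratory chain and 0 for tricarboxylic acid genes. It put the median at 0.60 for fatty acid, 0.93 for slow-twitch and -0.13 for matrix genes, Ppargc1a at 0.10, Mki67 at 1.12 and Jchain at -1.18. This model has as many coefficients as there are groups, so it rebuilds the difference from the means of all groups, old sedentary included. Its intervals are wider by design, and its values are not a slide-corrected form of the 8-array difference. Normexp background put 14762 features at the adult level, and a 2-fold bound 17742. Without the filter on dim probes 1 feature was called lower, and without the intensity trend 4 were called, 1 of them lower. The deposited series table gave 0 calls (0 higher, 0 lower). Replicate numbers did not pair the arrays (correlations of 0.01, -0.05, -0.04 and 0.12 for the same numbers), and a replicate block gave 0 calls (0 higher, 0 lower), and 1 for old MICT minus old HIIT. Unadjusted p under 0.05 was met by 3670 features (2220 higher, 1450 lower), and by 2894 and 2373 against old HIIT and adult MICT. Leaving out 1 array gave 0 to 20 calls (0 to 12 higher, 0 to 8 lower) and 0 to 429 against old HIIT. Without old MICT arrays 1 and 2, an alternative chosen after seeing the data, there were 0 calls (0 higher, 0 lower), and the glucocorticoid-responsive median was 0.46, Ucp3 -0.33, Ppargc1a 0.05, Igf1 -0.29 and Angptl4 -0.70. Leaving out 1 array, Myh2 ran from -0.51 to 0.02 (without old MICT 2), Mki67 from -0.90 to 0.37 (without adult sedentary 2) and Atp2a1 from -0.31 to 0.12 (without old MICT 3), with 0.05 and 0.02 without adult sedentary 1 and 3. Of the values of single genes, 1516 kept their side of the threshold or stayed at the adult level, 40 gained a call, 22 lost one, 33 left the adult level and 12 turned sign. Sign was not compared for genes at the adult level, which could change it within the bound. Col4a1, at 0.00 in the main fit, ran from -0.74 to 1.04 and was not counted as turning sign. Dim features limited what could be placed at the adult level, with a standard error of 0.28 in the dimmest quartile beside 0.14 in the brightest.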

Other observations

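Other gene groups of the same 8 arrays were mixed. Of 30 insulin, growth and mTORC1 genes tested, 9 had an unadjusted p under 0.05 with a positive difference and 1 with a negative one, where 9.32% and 6.09% of all features did. Of 19 senescence and age-linked genes, 7 did so with a positive and 3 with a negative difference. Of 34 interferon and antigen presentation genes tested, 0 had an unadjusted p under 0.05 in limma's test and 0 were called. Their array scores were -0.42, -0.95, 1.08 and -0.22 in old MICT muscle and -0.21, 0.33, -0.09 and -0.02 in adult sedentary muscle, so old MICT array 3 was the highest of the 8 and old MICT array 2 the lowest. Of 10 macrophage markers, 0 had an unadjusted p under 0.05, with old MICT scores of -0.56 to 0.20 inside the adult sedentary range of -0.52 to 0.71 except on array 4. Of 7 satellite cell markers tested, 2 had all old MICT arrays below all adult sedentary arrays, beside 3.22% of all features. The dim Calcr was among these 2, and 1 of the 7 passed the filter through the adult sedentary arrays alone.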
